A study of Mus musculus with 20 samples.

Results

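RNA of 10 genes that mark or maintain hematopoietic stem and progenitor cells, Mecom, Hlf, Meis1, Mllt3, Kit, Flt3, Slamf1, Cd48, Procr and Cd34, was quantified in oxaliplatin-treated and vehicle-treated mice, in bone marrow and in kidney. The members were taken by gene symbol from the raw count tables of both tissues, and all 10 were found among the 55486 genes listed. The design held 20 libraries, 5 per tissue and treatment, labelled as biological replicates. All mice were C57BL/6 mice aged 10 weeks at the start. One group of each tissue received 10 mg/kg oxaliplatin, a platinum chemotherapeutic, by intraperitoneal injection in 5% dextrose for 8 weeks, and the other received 5% dextrose alone. Marrow of the femur and tibia was spun out 6 days after dosing ended and was not sorted. Every library held Y-linked RNA, with a sum over 4 genes of at least 77.5 CPM (counts scaled to a common library size) in kidney and 99.1 in marrow, and Xist did not exceed 2.88 CPM. The methods name both sexes and the labels give none. Summed counts ran from 31062858 to 39293176 in vehicle marrow, from 30660153 to 41140527 in oxaliplatin marrow, from 24393007 to 28304953 in vehicle kidney and from 26314983 to 30925430 in oxaliplatin kidney. Cdkn1a, the p53 target that encodes the cell cycle inhibitor p21, checked the treatment labels. It lay between 6.08 and 7.18 CPM in vehicle marrow and between 79.2 and 153 CPM in oxaliplatin marrow, and between 1.71 and 4.78 CPM against 79.3 and 149 CPM in kidney.

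Blood cells descend from a small pool of hematopoietic stem cells, which pass through multipotent progenitors to the myeloid, lymphoid and erythroid lineages. Mecom, Hlf, Meis1 and Mllt3 encode nuclear proteins known for keeping stem cells able to self-renew. Kit and Flt3 are receptor tyrosine kinases, Kit for stem cell factor and Flt3 for the ligand that expands multipotent, lymphoid and dendritic progenitors. Slamf1 (CD150), Cd48, Procr (EPCR) and Cd34 are surface proteins used to sort the compartment: mouse stem cells with the longest output are classically CD150 positive, CD48 negative, EPCR positive and CD34 negative or low. None of these genes is restricted to stem cells, since Kit also marks mast cells, Slamf1 megakaryocytes and macrophages, Procr, Cd34 and Mecom endothelium, and Cd48 most leukocytes. In whole tissue, fewer cells of a type and less RNA per cell cannot be told apart.

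Promoters are shown for the 3 members that rose in marrow, Slamf1, Procr and Mecom, and for Cd48, the genomic neighbour and sorting partner of Slamf1, because the neighbours had different RNA values. Each is 300 bases around a RefSeq transcription start on GRCm38.p6, 5′ to 3′ on the gene's strand. Capitals mark letters of the motifs searched on both strands: AGATAA for the GATA factors, the E box spellings CAGCTG plus its variant CAGATG, then CCGGAA for the ETS factors, TGACAG for the MEIS factors, and finally TTACGTAA or, in its variant spelling, TTATGTAA for the D box bound by Hlf and its relatives. The Slamf1 window lies at chr1:171766882-171767181, plus strand, the Cd48 window at chr1:171681742-171682041, plus strand, and the Procr window at chr2:155750967-155751266, plus strand. Mecom has 2 listed starts on the minus strand, upstream at chr3:30509710-30510009 and downstream at chr3:30013155-30013454, and the gene-level counts do not separate their transcripts.
Slamf1: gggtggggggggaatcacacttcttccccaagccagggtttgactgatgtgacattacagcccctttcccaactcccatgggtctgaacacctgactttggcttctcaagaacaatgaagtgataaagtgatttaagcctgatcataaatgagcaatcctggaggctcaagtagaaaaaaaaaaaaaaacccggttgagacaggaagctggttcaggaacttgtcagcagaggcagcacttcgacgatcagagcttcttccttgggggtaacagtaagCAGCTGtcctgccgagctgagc
Cd48: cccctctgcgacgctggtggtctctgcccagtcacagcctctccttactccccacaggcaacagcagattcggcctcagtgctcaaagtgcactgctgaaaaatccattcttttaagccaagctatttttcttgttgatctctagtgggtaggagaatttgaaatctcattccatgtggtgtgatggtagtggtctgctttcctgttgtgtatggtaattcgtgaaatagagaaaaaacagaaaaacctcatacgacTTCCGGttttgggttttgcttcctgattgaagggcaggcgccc
Procr: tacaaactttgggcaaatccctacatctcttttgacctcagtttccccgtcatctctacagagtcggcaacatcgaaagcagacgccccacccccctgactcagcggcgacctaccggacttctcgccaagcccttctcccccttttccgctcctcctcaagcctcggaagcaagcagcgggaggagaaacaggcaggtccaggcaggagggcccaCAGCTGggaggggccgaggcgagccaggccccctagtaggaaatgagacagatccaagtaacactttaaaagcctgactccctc
Mecom upstream: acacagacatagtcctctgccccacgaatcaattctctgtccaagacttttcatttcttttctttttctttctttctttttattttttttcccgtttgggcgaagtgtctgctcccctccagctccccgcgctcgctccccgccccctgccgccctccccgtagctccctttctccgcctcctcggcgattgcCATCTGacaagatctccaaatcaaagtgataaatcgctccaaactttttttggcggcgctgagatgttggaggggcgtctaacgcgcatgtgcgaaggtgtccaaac
Mecom downstream: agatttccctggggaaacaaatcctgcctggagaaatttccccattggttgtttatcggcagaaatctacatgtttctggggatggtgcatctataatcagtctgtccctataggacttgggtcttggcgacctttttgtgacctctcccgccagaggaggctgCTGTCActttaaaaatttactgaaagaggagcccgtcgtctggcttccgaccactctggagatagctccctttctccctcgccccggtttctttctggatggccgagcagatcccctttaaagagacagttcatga

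The 10 members matched 13 promoter windows. CAGCTG was found in windows of Slamf1, Procr and Mllt3 and in 16.3% of all 32851 windows of the same length. CAGATG was found in windows of Mecom, Mllt3 and Flt3, against 17.2% of all windows. CCGGAA was found in those of Cd48, Hlf and Meis1, against 14.9% of all windows, and TGACAG in those of Mecom and Mllt3, against 19.2%. The letters AGATAA were in no member window and in 11.2% of all windows, and other spellings of the GATA site were not searched. Neither D box spelling was in a member window, and they were found in 0.119% and 0.938% of all windows.

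In bone marrow, 3 of the 10 members rose after oxaliplatin, the stem cell surface genes Procr (4.31-fold) and Slamf1 (1.88-fold) and the transcription factor gene Mecom (1.93-fold), and none fell. A gene was called when its adjusted p was under 0.05 in edgeR's quasi-likelihood test and its fold change was beyond 1.5 either way. Over all 22363 genes tested in marrow, 23.3% were called, 11.6% as higher and 11.8% as lower, so that the members' 3 of 10 lay near the background. At an adjusted p under 0.05 whatever the fold there were 6 members, 4 higher (Mecom, Meis1, Slamf1 and Procr) and 2 lower (Hlf and Kit), against 33.1% of all genes, and neither of the lower members was under 0.05 with library size alone or with the Y-linked covariate. Marrow values of the 5 treated and 5 vehicle mice did not overlap for 5 members, against 24.9% of all genes. The median log2 fold change of the members was −0.13 and that of all tested genes −0.04, with 4 members above 0 and 6 below.

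**Figure D1:**
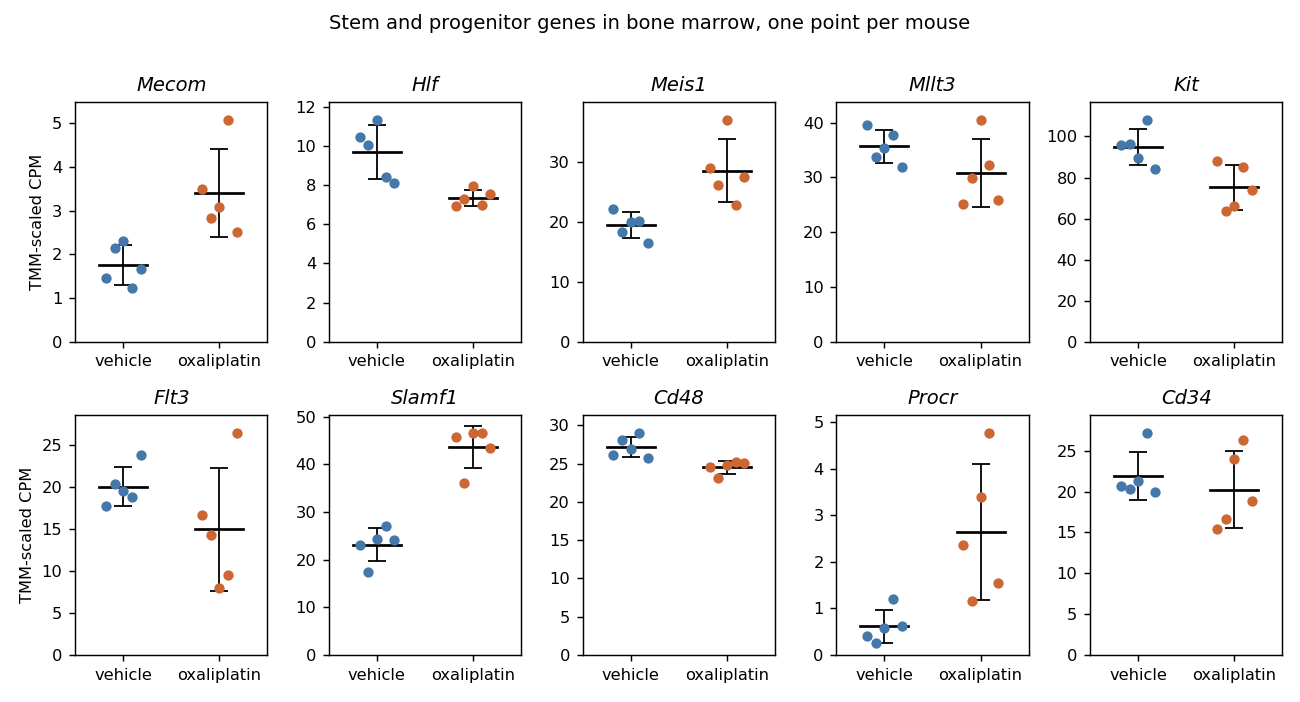
TMM-scaled CPM in bone marrow on linear axes from 0, with 1 point per mouse, 5 vehicle and 5 oxaliplatin, in the order of the replicate numbers. Horizontal bars are means and error bars SDs. Slamf1, Mecom and Meis1 sat higher in all 5 treated mice, Hlf sat lower, and the treated values of Flt3, Procr and Cd34 were widely spread.

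Among the nuclear proteins, Mecom encodes a zinc finger factor of which stem cells need a full dose. Its marrow level was 1.46, 2.15, 2.30, 1.23 and 1.66 CPM in vehicle mice 1 to 5 and 3.49, 2.82, 3.08, 5.07 and 2.51 CPM in oxaliplatin mice 1 to 5. Every treated mouse lay above every vehicle mouse, with treated mouse 4 the highest. The mean went from 1.76 ± 0.457 to 3.39 ± 1.01 CPM (SD, n = 5), a log2 fold change of 0.95 (SE 0.25, adjusted p = 0.0112 by edgeR). These values rest on 43 to 228 counts per library, and in edgeR's test against a 1.5-fold change the adjusted p was 0.165. Mecomos, which runs antisense over Mecom exons, had 71 counts over the 10 marrow libraries, and whether the counting used strand is not given in the sources used here.

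Meis1 encodes a homeodomain partner of Hox and Pbx proteins. It was at 22.2, 18.3, 19.9, 20.1 and 16.4 CPM in vehicle marrow and at 29.0, 26.2, 37.0, 22.9 and 27.4 CPM in oxaliplatin marrow. The groups did not overlap, although the highest vehicle mouse and the lowest treated mouse were close, and treated mouse 3 stood highest. The log2 difference of 0.55 (SE 0.13, adjusted p = 0.00553 by edgeR) corresponds to 1.47-fold, just under the fold threshold. Meis1 passed it with DESeq2 (0.60), with the relative log expression scaling RLE (0.60) and with library size alone (0.70). Its exons overlap Gm37818 and the antisense Gm16140, with 273 and 56 counts over the marrow libraries.

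Hlf encodes a PAR bZIP factor whose RNA is concentrated in stem cells within marrow. Hlf was at 10.5, 10.0, 11.3, 8.44 and 8.09 CPM in vehicle mice and at 6.94, 7.27, 7.95, 6.99 and 7.57 CPM in treated mice. All treated values were below all vehicle values, and their spread was narrow, with means of 9.68 ± 1.38 and 7.34 ± 0.422 CPM (SD, n = 5). The log2 difference was −0.40 (SE 0.13, adjusted p = 0.0348 by edgeR), which is under 1.5-fold and was not called. With library size alone it was −0.25 (adjusted p = 0.167 by edgeR). The adjusted p by edgeR was also over 0.05 with RLE scaling (0.0611), without a count filter (0.106) and with the Y-linked covariate (0.0763). It was 0.0768 with the replicate number as a block and 0.0572 with late erythroid and globin genes left out of the totals. It was 0.0527 without treated mice 3 and 4. When any 1 of vehicle mice 1, 2 and 3 or treated mice 1, 2, 4 and 5 was left out, it was over 0.05 as well (up to 0.102).

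Mllt3 encodes a YEATS-domain reader of the transcription elongation machinery. It lay at 39.5, 33.7, 35.4, 37.8 and 32.0 CPM in vehicle mice and at 25.2, 29.9, 40.5, 32.2 and 25.9 CPM in treated mice. Treated mouse 3 was the highest of all 10, while treated mice 1, 2 and 5 were below every vehicle mouse. Its log2 difference was −0.21 (SE 0.13, 95% interval −0.49 to 0.07, adjusted p = 0.234 by edgeR). With treated mice 3 and 4 left out it was −0.40 (adjusted p = 0.00671 by edgeR), still under 1.5-fold.

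Both receptor tyrosine kinase genes had lower means in treated marrow, and neither was called. Kit was at 96.0, 96.5, 89.7, 108 and 84.2 CPM in vehicle mice and at 88.1, 63.7, 66.1, 85.0 and 74.0 CPM in treated mice. Treated mice 1 and 4 overlapped the vehicle range and the other 3 lay below it. The log2 difference was −0.33 (SE 0.11, adjusted p = 0.0323 by edgeR), or 1.26-fold lower. With library size alone it was −0.18 (adjusted p = 0.220 by edgeR), and the adjusted p was 0.103 with the Y-linked covariate and from 0.0652 to 0.0854 when any 1 of vehicle mice 1, 2 and 4 or treated mice 2 and 5 was left out. Mast cells carry Kit as well, and the sum of 9 mast cell markers ran from 113 to 162 CPM in vehicle marrow and from 78.6 to 130 CPM in treated marrow. Hdc, at a mean of 96.3 CPM over the 10 marrow libraries, made up most of that sum. Of 7 markers tested, 3 were called higher and 2 lower, and no marker was at 3 counts or fewer in every library. Their part in the Kit values was not tested.

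Flt3 varied widely among treated mice. It lay at 17.8, 20.3, 19.6, 18.9 and 23.9 CPM in vehicle mice and at 16.7, 14.3, 7.92, 9.53 and 26.5 CPM in treated mice. Treated mice 3 and 4 were far below the vehicle range and treated mouse 5 above it. The log2 difference of −0.42 (SE 0.27, 95% interval −1.01 to 0.16) had an adjusted p of 0.257 by edgeR. Without treated mouse 5 it was −0.70 with an adjusted p of 0.0137 by edgeR and would be called, and without treated mice 3 and 4 it was −0.06 with 0.818. Treated mouse 5 also had the lowest Y-linked sum in marrow, 99.1 CPM against at least 133 CPM in the other 9. With the mean log2 CPM of the 4 Y-linked genes as a covariate, the difference was −1.04 (adjusted p = 0.00238 by edgeR) and Flt3 would be called as lower. Neutrophil markers moved with the same animals: their sum over 9 genes, led by Ngp, was 7366 CPM in treated mouse 3 and 10160 CPM in treated mouse 4, against 22503 to 28808 CPM in treated mice 1, 2 and 5 and 18845 to 23102 CPM in vehicle mice. None of the 9 neutrophil markers was called or at 3 counts or fewer throughout, and their part in the spread of Flt3 was not tested. The Kit to Flt3 ratio of CPM ran from 3.53 to 5.73 in vehicle mice and was 5.26, 4.46, 8.34, 8.93 and 2.79 in treated mice 1 to 5.

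Dendritic cells and their progenitors also carry Flt3. The 10 dendritic markers, led by Irf8, summed to 449 ± 7.73 CPM in vehicle marrow and 303 ± 45.5 CPM in treated marrow (SD, n = 5), with 6 called lower, none higher and none at 3 counts or fewer throughout. All treated mice lay below all vehicle mice in that sum, which was 306 and 380 CPM in treated mice 3 and 4 and lowest, 265 CPM, in treated mouse 5, the animal with most Flt3. What part these markers had in the Flt3 values was not tested.

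The SLAM receptors Slamf1 and Cd48 are encoded 61868 bp apart on chromosome 1 of GRCm38, Slamf1 at chr1:171767127-171801184 and Cd48 at chr1:171682009-171705258. Slamf1, the CD150 marker, rose, and every treated mouse exceeded every vehicle mouse. It was at 23.2, 17.4, 24.2, 27.0 and 24.05 CPM in vehicle mice and at 45.7, 36.1, 46.6, 46.5 and 43.4 CPM in treated mice. The groups were far apart, and mouse 2 was the lowest of either group. The mean went from 23.2 ± 3.53 to 43.6 ± 4.41 CPM (SD, n = 5), a log2 fold change of 0.91 (SE 0.12, adjusted p = 7.65e-05 by edgeR). With any 1 library left out the value stayed between 0.83 and 0.98. Megakaryocytes carry CD150, and the sum of 9 megakaryocyte markers, led by Ppbp, was 1587 ± 260 CPM in vehicle and 2811 ± 472 CPM in treated marrow, with 7 called higher, none lower and none at 3 counts or fewer throughout. That sum did not overlap between groups either, and its part in the Slamf1 values was not tested.

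Cd48, which stem cells lack and most other blood cells carry, was at 26.2, 28.1, 26.9, 29.0 and 25.8 CPM in vehicle mice and at 24.6, 23.1, 24.8, 25.2 and 25.2 CPM in treated mice. The treated values were all just below the vehicle values. The log2 difference of −0.15 (SE 0.08, 95% interval −0.32 to 0.03) had an adjusted p of 0.185 by edgeR, and the interval excludes a 1.5-fold change either way. With library size alone as the scaling it was 0.0028, so no direction is given. The Slamf1 to Cd48 ratio of CPM within a mouse was 0.885, 0.619, 0.899, 0.930 and 0.933 in vehicle marrow and 1.86, 1.56, 1.88, 1.85 and 1.73 in treated marrow. Slamf1 CPM was below Cd48 CPM in all 5 vehicle mice and above it in all 5 treated mice, without correction for exon length.

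Of 10 other SLAM family members and adaptors tested in marrow, 1 rose and 2 fell, near the background of 11.6% higher and 11.8% lower, with a median log2 fold change of −0.27. Slamf6, which lies beyond Cd84 from Slamf1 in the same cluster and is found on T, B and NK cells, fell from 22.03 ± 4.42 to 8.35 ± 1.53 CPM (SD, n = 5), a log2 fold change of −1.40 (SE 0.16, adjusted p = 2.85e-05 by edgeR). Cd2, a T and NK cell relative on chromosome 3, fell by 1.42 on the log2 scale, and Slamf8, a myeloid member, rose by 1.09 with overlapping groups (adjusted p = 0.0486 by edgeR). Ly9 differed by −0.34 and Cd84 by 0.04 on the log2 scale, and neither was called. T and NK cell markers, led by Cd4, summed to 154 ± 19.5 CPM in vehicle and 103 ± 13.5 CPM in treated marrow (SD, n = 5), with 2 of 10 called lower, none higher and none at 3 counts or fewer throughout.

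Procr encodes the endothelial protein C receptor and had the largest fold change of the members, on few reads. It lay at 0.411, 0.262, 0.567, 1.20 and 0.617 CPM in vehicle mice, from 9 to 42 counts, and at 2.36, 1.16, 3.38, 4.76 and 1.54 CPM in treated mice, from 37 to 214 counts. Vehicle mouse 4 was just above treated mouse 2, so the groups overlapped by that pair alone, and treated mice 3 and 4 were highest. The mean went from 0.611 ± 0.356 to 2.64 ± 1.46 CPM (SD, n = 5), a log2 fold change of 2.11 (SE 0.45, adjusted p = 0.00298 by edgeR). Without treated mice 3 and 4 it was 1.46 (adjusted p = 0.0158 by edgeR), and it stayed called.

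Endothelial cells carry Procr, Mecom and Cd34. The 12 endothelial markers, led by Stab2, summed to 609 ± 51.7 CPM in vehicle marrow and 991 ± 235 CPM in treated marrow (SD, n = 5), without overlap, with 7 called higher, none lower and none at 3 counts or fewer throughout. Treated mice 1 to 5 were at 1186, 767, 827, 1297 and 881 CPM. Mouse 4 was the highest in this sum, Mecom, Procr and Cd34, and mouse 1 was second in the sum and in Mecom. Mouse 3, second in Procr, was low in the sum, and mouse 1 had the lowest Cd34. The part of endothelial RNA in these values was not tested.

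Cd34 encodes a sialomucin that multipotent progenitors gain as they leave the stem cell state. It was at 20.7, 20.4, 21.3, 27.2 and 19.98 CPM in vehicle marrow and at 15.5, 16.7, 24.03, 26.3 and 18.8 CPM in treated marrow. Treated mice 1, 2 and 5 lay below every vehicle mouse, and treated mice 3 and 4 lay among the highest. The log2 difference was −0.11 (SE 0.16, 95% interval −0.45 to 0.22, adjusted p = 0.623 by edgeR). It was −0.37 without treated mice 3 and 4 (adjusted p = 0.0350 by edgeR, under 1.5-fold), and 0.05 with library size alone as the scaling, so no direction is given over all mice. Gm16897 runs antisense over Cd34 exons, with 321 counts over the marrow libraries.

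Treated mice 3 and 4 thus differed from the other 3 in several members. Among the treated mice, each of them was the highest in 4 of the 10 members, mouse 1 and mouse 5 in 1 each and mouse 2 in none. In vehicle marrow, mouse 4 was the highest in 5 members and mouse 5 the lowest in 6. Skeletal muscle markers also differed: the sum of 6 genes, led by Myh4, was 779 CPM in treated mouse 3, 43.6 in treated mouse 4 and 314 to 373 in the other treated mice, against 9.75 to 103 CPM in vehicle mice, with 5 called higher, none lower and none at 3 counts or fewer throughout. With treated mice 3 and 4 left out, Mecom, Slamf1 and Procr were still the 3 members called, and 5130 genes were called in all.

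In kidney, the comparison tissue, 1 of 9 members tested rose, Cd34, and none fell. Over all 19293 genes tested in kidney 11.5% were called, 7.68% as higher and 3.81% as lower. At an adjusted p under 0.05 whatever the fold there were 5 members, 4 higher and 1 lower, against 29.4% of all genes. Groups did not overlap for 6 members, against 20.7% of all genes. The members' median log2 fold change was 0.28 and that of all genes 0.02. Kidney was checked by its 8 tubule and podocyte markers, led by Slc34a1, which summed to 18132 ± 1067 CPM in vehicle and 17388 ± 1248 CPM in treated kidney (SD, n = 5) with 2 called higher and none lower. The same markers summed to at most 11.7 CPM in marrow, where 2 were tested and 1 was lower.

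Kidney Cd34, which marks capillary endothelium, was at 15.0, 14.6, 16.3, 14.9 and 14.5 CPM in vehicle mice and at 21.9, 21.8, 23.2, 30.1 and 26.8 CPM in treated mice. All treated mice were above all vehicle mice. The mean went from 15.1 ± 0.726 to 24.8 ± 3.62 CPM (SD, n = 5), a log2 fold change of 0.72 (SE 0.10, adjusted p = 4.8e-05 by edgeR), and the adjusted p was 0.469 in the test against a 1.5-fold change. The 12 endothelial markers, led by Plvap, summed to 571 ± 8.95 CPM in vehicle and 803 ± 110 CPM in treated kidney, with 4 called higher, none lower and no overlap. Treated mouse 4, highest in Cd34, was at 807 CPM, and treated mouse 5 was highest in the sum at 983 CPM. Their part in the Cd34 values was not tested.

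Kit was higher in treated kidney, at 19.3, 20.9, 16.8, 19.3 and 17.9 CPM in vehicle mice and 23.4, 24.7, 22.7, 29.2 and 25.9 CPM in treated mice. The groups did not overlap, and the log2 difference was 0.42 (SE 0.09, adjusted p = 0.00180 by edgeR), under 1.5-fold. Of the 9 mast cell markers, Cpa3, Mcpt4, Fcer1a and Mrgprb1 were at 3 counts or fewer in every kidney library, and the 1 marker tested was not called. Hdc, at a mean of 8.33 CPM over the 10 kidney libraries, led their sum, which was 3.08 to 10.1 CPM in vehicle mice, 7.19 to 7.47 CPM in treated mice 1 to 4 and 22.6 CPM in treated mouse 5. Their part in the Kit values was not tested.

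The nuclear protein genes differed by less than 1.5-fold in kidney with TMM scaling. Mecom, which kidney tubules express, was at 55.5 ± 3.99 CPM in vehicle and 67.4 ± 4.81 CPM in treated kidney (SD, n = 5), a log2 difference of 0.28 (adjusted p = 0.00640 by edgeR). Meis1, found in renal stroma, was at 7.42 ± 0.462 and 10.3 ± 1.16 CPM, a difference of 0.48 (adjusted p = 0.00321 by edgeR). With library size alone the Meis1 difference was 0.61 (adjusted p = 0.00103 by edgeR), beyond 1.5-fold, and Meis1 would be called. Mllt3 was at 13.7 ± 1.20 and 11.1 ± 0.832 CPM, a difference of −0.31 (adjusted p = 0.0217 by edgeR). For Mllt3 it was −0.17 (adjusted p = 0.171 by edgeR) with library size alone, and the adjusted p was also over 0.05 without a count filter (0.0519), with the replicate number as a block (0.0564) and when vehicle mouse 5 or any 1 of treated mice 1, 3 and 5 was left out (up to 0.0736). Mecom, Meis1, Mllt3 and Hlf had no overlap between groups. Hlf, a circadian output gene in kidney, was at 191 ± 10.1 and 166 ± 19.6 CPM, a difference of −0.21 with an adjusted p of 0.0606 by edgeR (0.0434 by DESeq2 and 0.0106 by edgeR with the Y-linked covariate), and treated mouse 1 was the lowest at 134 CPM.

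The remaining members had few counts in kidney, where 3 counts correspond to between 0.0970 and 0.123 CPM. Procr, from 18 to 46 counts, was at 1.27, 1.07, 1.34, 0.886 and 0.729 CPM in vehicle mice and at 1.65, 1.52, 1.22, 1.47 and 0.990 CPM in treated mice, with overlap and a log2 difference of 0.37 (adjusted p = 0.281 by edgeR). Flt3 had 7 to 12 counts in vehicle mice and 1 to 12 in treated mice, and Cd48 had 4 to 20 and 4 to 14. Their log2 differences of −1.25 (adjusted p = 0.0830 by edgeR) and −0.61 (adjusted p = 0.323 by edgeR) were not called. Without treated mouse 4 that of Flt3 was −1.81 (adjusted p = 0.0217 by edgeR). With the Y-linked covariate it was −1.42 (adjusted p = 0.0404 by edgeR), and in either case Flt3 would be called as lower. Slamf1 had 0 to 8 counts in vehicle mice and 0 to 6 in treated mice and did not enter the kidney test. The depth could not show a difference for Slamf1 in kidney.

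**Figure D2:**
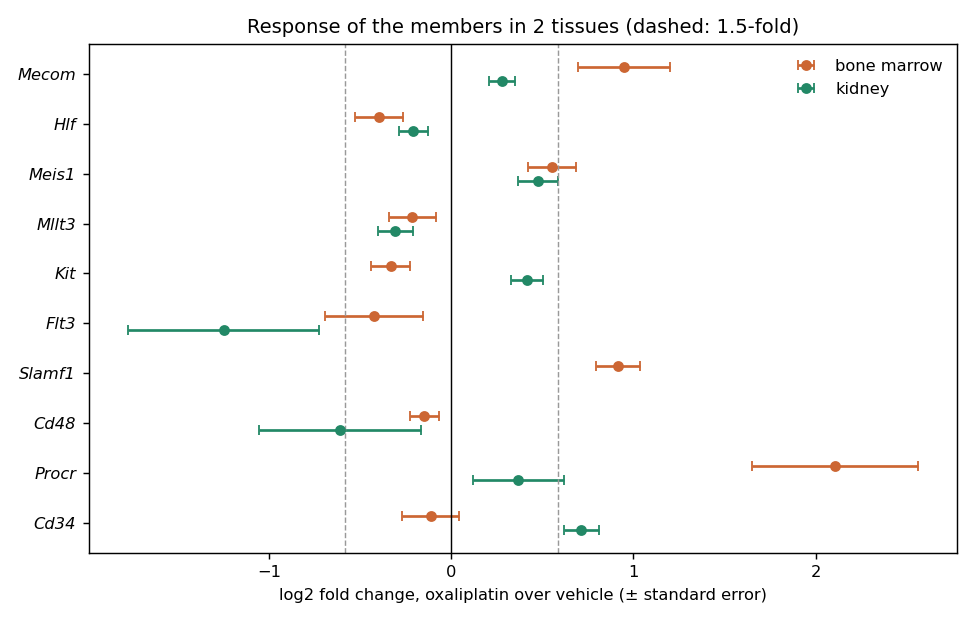
Log2 fold change of oxaliplatin over vehicle with its standard error from edgeR, in bone marrow and in kidney, 5 mice per group. Dashed lines mark 1.5-fold. Procr, Mecom and Slamf1 lie beyond the right line in marrow, Cd34 in kidney, Kit lies on opposite sides of 0 in the 2 tissues, and Slamf1 has no kidney value.

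Whether the response differed between tissues was tested as a tissue by treatment term over all 20 libraries, taken as independent. The sources used here do not say whether a number marks the same mouse in both tissues. The term had an adjusted p under 0.05 for 4 of 10 members, against 30.1% of 24321 genes tested. Kit, lower in treated marrow and higher in treated kidney, had a term of −0.69 on the log2 scale (adjusted p = 4.60e-04 by edgeR). Cd34 had −0.76 (adjusted p = 0.00574 by edgeR), with values of −0.11 in marrow and 0.72 in kidney. Mecom had 0.74 (adjusted p = 0.0178 by edgeR) and Procr 1.81 (adjusted p = 0.0131 by edgeR), both with the larger value in marrow. Meis1 (log2 differences of 0.55 in marrow and 0.48 in kidney) and Hlf (−0.40 and −0.21) lay on the same side of 0 in both tissues, and a difference between tissues was not shown for them.

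Levels of different members were compared as CPM per kilobase of merged exon, scaled within each tissue. In vehicle marrow Cd48 was highest at 22.9 CPM per kb, then Kit at 10.6, and both stood clear of the next member. Slamf1 (3.76), Flt3 (3.25), Cd34 (3.01) and Mllt3 (2.97) CPM per kb followed with overlapping mice. Meis1 (1.84) and Hlf (1.45) CPM per kb overlapped one another, and Procr (0.301) and Mecom (0.141) CPM per kb came last, also overlapping. In treated marrow Slamf1 reached 7.09 CPM per kb and overlapped Kit at 8.46 CPM per kb. Procr, at 1.30 CPM per kb, overlapped Hlf at 1.10 CPM per kb, which it had not done in vehicle marrow. Mecom remained lowest at 0.273 CPM per kb.

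Kidney had another order on its own scale. Hlf was highest at 28.6 CPM per kb in vehicle kidney, then Mecom at 4.47, each clear of the next. Kit (2.11) and Cd34 (2.07) CPM per kb overlapped, Mllt3 (1.14) stood alone, and Meis1 (0.704) overlapped Procr (0.521), which overlapped Cd48 (0.446). Flt3 (0.0696) and Slamf1 (0.0176) CPM per kb were lowest. The members with the lowest levels in marrow, Mecom among them, were therefore not the lowest in kidney, though the tissues were scaled separately and no test was made across them.

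**Figure D3:**
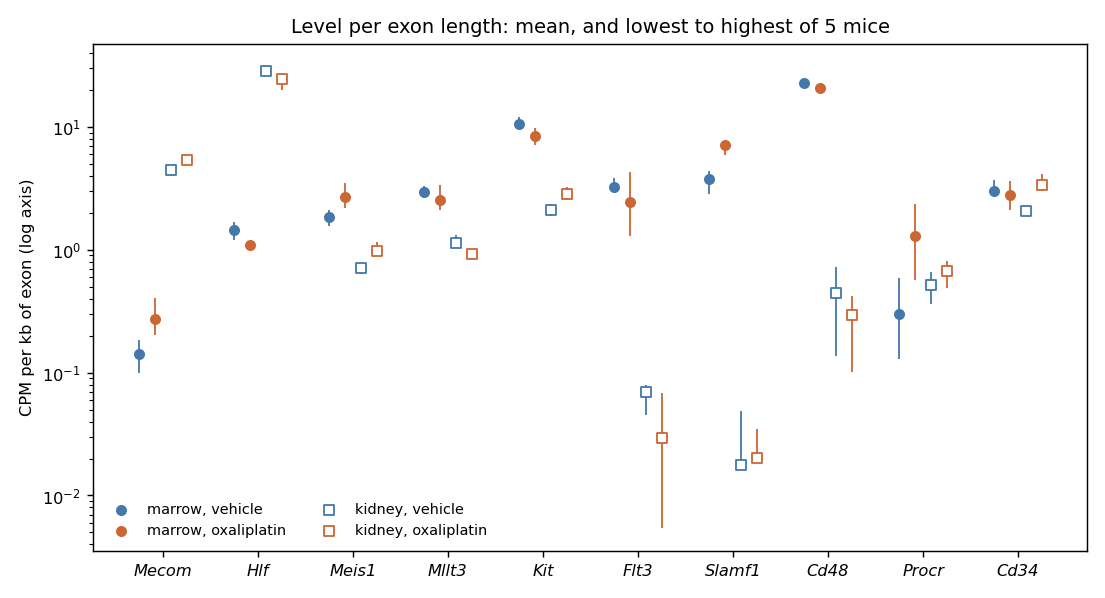
CPM per kb of merged exon on a log axis for each member in the 4 groups, with the mean as the symbol and a line from the lowest to the highest of 5 mice. For Slamf1 in kidney, where a mouse of each group had 0 counts, the line starts at the mean. Cd48 and Kit lead in marrow, Hlf and Mecom in kidney.

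Genes of the same cell states and pathways were read from 11 lists, counted in marrow against the background of 11.6% higher and 11.8% lower. Of 18 other stem cell surface and quiescence genes 11 rose and 1 fell, with a median log2 fold change of 0.65. Gprc5c, a receptor of dormant stem cells, rose from 3.28 ± 0.434 to 24.2 ± 6.63 CPM (SD, n = 5), a log2 fold change of 2.88 (SE 0.19, adjusted p = 4.21e-07 by edgeR). Cdkn1c, the p57 cell cycle inhibitor of quiescent stem cells, rose by 1.86 on the log2 scale (SE 0.31, adjusted p = 4.94e-04 by edgeR). Cd82, a tetraspanin, fell from 207 ± 23.7 to 78.4 ± 9.42 CPM (SD, n = 5). Chosen after their values were seen, Ly6a (Sca-1) rose by 1.27 and Esam by 1.13 on the log2 scale, while Tek at −0.39 and Vwf at 0.31 were not called. Ly6a and Esam are also carried by endothelium.

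Stem cell transcription factors moved both ways, 5 of 23 tested up and 4 down, with a median of 0.15. Hoxa10 rose from 2.30 ± 0.116 to 6.45 ± 1.501 CPM (SD, n = 5), a log2 fold change of 1.49 (adjusted p = 7.74e-05 by edgeR), and Prdm16, a relative of Mecom, by 0.96 (adjusted p = 0.00281 by edgeR). Lmo2 fell from 270 ± 23.4 to 140 ± 33.3 CPM (−0.95 on the log2 scale), and Myb from 225 ± 14.8 to 131 ± 33.1 CPM (−0.78; SD, n = 5). Lmo2 and Myb are also needed in erythroid precursors. Gata2, a stem cell regulator named after its value was seen, differed by 0.10 on the log2 scale and was not called.

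Among lists of later progenitors, the lymphoid and erythroid ones held genes called lower and none higher. Marrow was not sorted, and 10 of 10 late erythroid and 8 of 10 B cell markers fell as well. The part of those later cells in these lists was not tested. Of 10 multipotent and lymphoid progenitor genes 5 fell and none rose, with a median of −1.10. Rag1, the recombinase of lymphocyte precursors, fell from 50.2 ± 16.2 to 4.68 ± 6.55 CPM, and Ccr9, a homing receptor that the dendritic list also holds, from 10.5 ± 0.647 to 2.82 ± 0.655 CPM (SD, n = 5). Of 10 erythroid progenitor genes 8 fell and none rose, with a median of −1.31, led by the water channel gene Aqp1 (−2.89) and the carbonic anhydrase gene Car1 (−1.97). Of 10 granulocyte-monocyte progenitor genes 3 rose and 1 fell, with a median of 0.31. Cebpa, the granulocyte-monocyte determinant, rose from 98.3 ± 7.80 to 227 ± 48.3 CPM, Igfbp4 rose by 1.15 on the log2 scale, and Irf8, the monocyte and dendritic determinant, fell from 214 ± 6.60 to 117 ± 7.32 CPM (SD, n = 5).

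**Figure D4:**
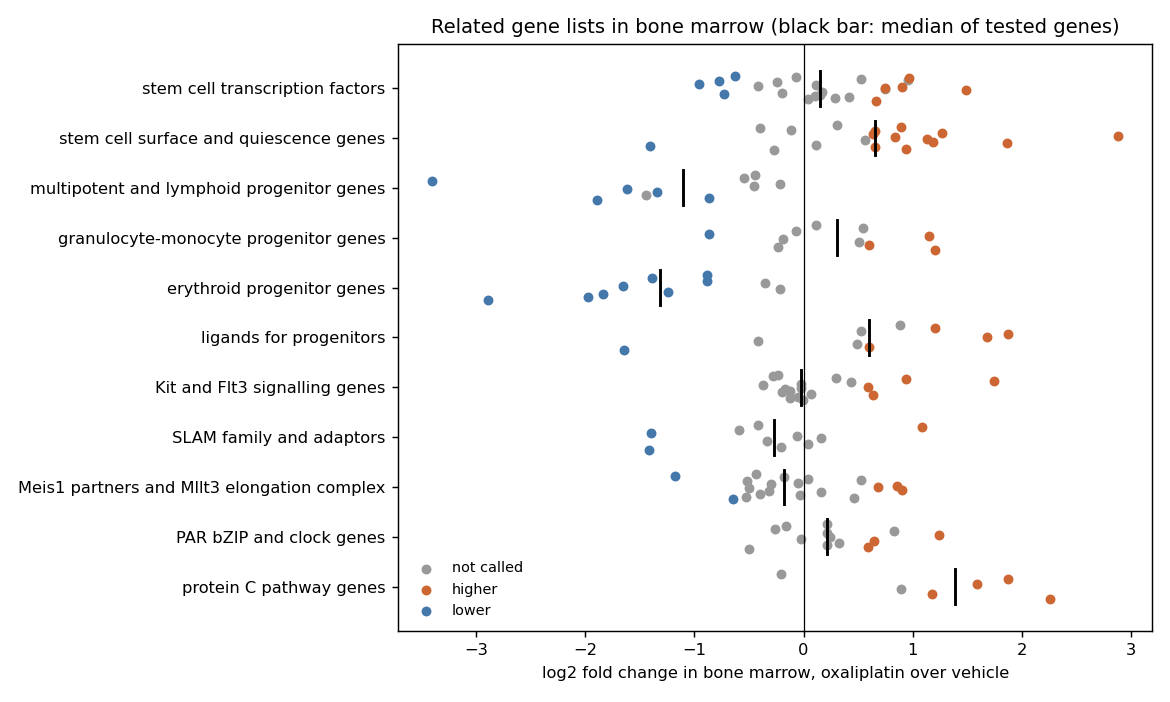
Log2 fold change in bone marrow of each tested gene in 11 lists, with called genes in colour and the list's median as a black bar. Stem cell surface and quiescence genes have a median of 0.65, multipotent and lymphoid progenitor genes of −1.10 and erythroid progenitor genes of −1.31.

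Ligands and signalling genes of the receptors were read next. Of 9 ligand genes tested 4 rose and 1 fell, with a median of 0.60. Il7, the lymphoid cytokine, rose by 1.87 on the log2 scale (SE 0.33), Il6 by 1.68 (SE 0.42), and Angptl1 fell by 1.65 on the log2 scale (SE 0.33), with adjusted p of 6.46e-04, 0.00774 and 0.00177 by edgeR. Kitl, the ligand of Kit, named here after its values were seen, rose by 1.21, and Flt3l, the ligand of Flt3, differed by −0.41 (adjusted p = 0.0520 by edgeR). Of 18 Kit and Flt3 signalling genes 4 rose and none fell, with a median of −0.02. Socs3, a cytokine-induced feedback inhibitor, rose from 17.1 ± 2.19 to 57.2 ± 7.03 CPM, and Spred1, an inhibitor of the Ras pathway, from 32.1 ± 3.49 to 61.5 ± 6.39 CPM (SD, n = 5).

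Partners and relatives of the nuclear proteins followed. Of 19 Meis1 partners and Mllt3 elongation complex genes 3 rose and 2 fell, near the background of 11.6% higher and 11.8% lower, with a median of −0.17. Hoxa9, whose product binds DNA with Meis1, rose by 0.91 with overlapping groups, and Meis3 rose by 0.86. Pbx4 fell by 1.17 on the log2 scale and Aff1, a scaffold of the elongation complex, from 432 ± 9.99 to 276 ± 34.5 CPM (SD, n = 5). Of 13 PAR bZIP and clock genes, relatives of Hlf or its circadian regulators, 3 rose and none fell, with a median of 0.22, led by Nr1d1 (1.24) and Clock (0.64). Time of day at collection is not given in the sources used here. Of 6 protein C pathway genes tested 4 rose and none fell, with a median of 1.38. F2r, the thrombin receptor that activated protein C bound to Procr can also cleave, rose from 34.2 ± 5.25 to 164 ± 20.998 CPM (SD, n = 5).

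In kidney the stem cell surface and quiescence list had 2 of 17 higher and none lower and the stem cell transcription factors 1 of 20 higher and none lower, against 7.68% and 3.81% of all genes. Erythroid progenitor genes had 1 of 8 higher and none lower, and multipotent and lymphoid genes 1 of 6 higher and 1 lower. The protein C pathway had 3 of 7 higher and 1 lower, F2r among the higher (1.14 on the log2 scale). Gprc5c (0.11), Cdkn1c (0.06) and Hoxa10 (−0.22) were not called in kidney.

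Other cell type markers in marrow give the setting of these values. All 10 late erythroid genes, led by Hba-a1, fell, and their sum went from 42950 ± 8292 to 6763 ± 2475 CPM (SD, n = 5). Of 10 B cell markers, led by Ebf1, 8 fell and none rose, and the sum went from 526 ± 103 to 138 ± 23.0 CPM. Of 11 monocyte and macrophage markers, led by Vcam1, 4 rose and 1 fell, with sums of 1716 ± 161 and 2510 ± 661 CPM that overlapped in treated mouse 3. Of 10 stroma, bone and fat markers, led by Cxcl12, 2 rose and none fell, with sums of 2073 ± 239 and 2958 ± 632 CPM that overlapped. None of these 4 lists had a gene at 3 counts or fewer in every library. CPM are shares of a library, and leaving 18 late erythroid and globin genes out of the totals left Mecom, Slamf1 and Procr called and added Meis1 (0.59). The part of these cell types in the members' values was not tested further.

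**Figure D5:**
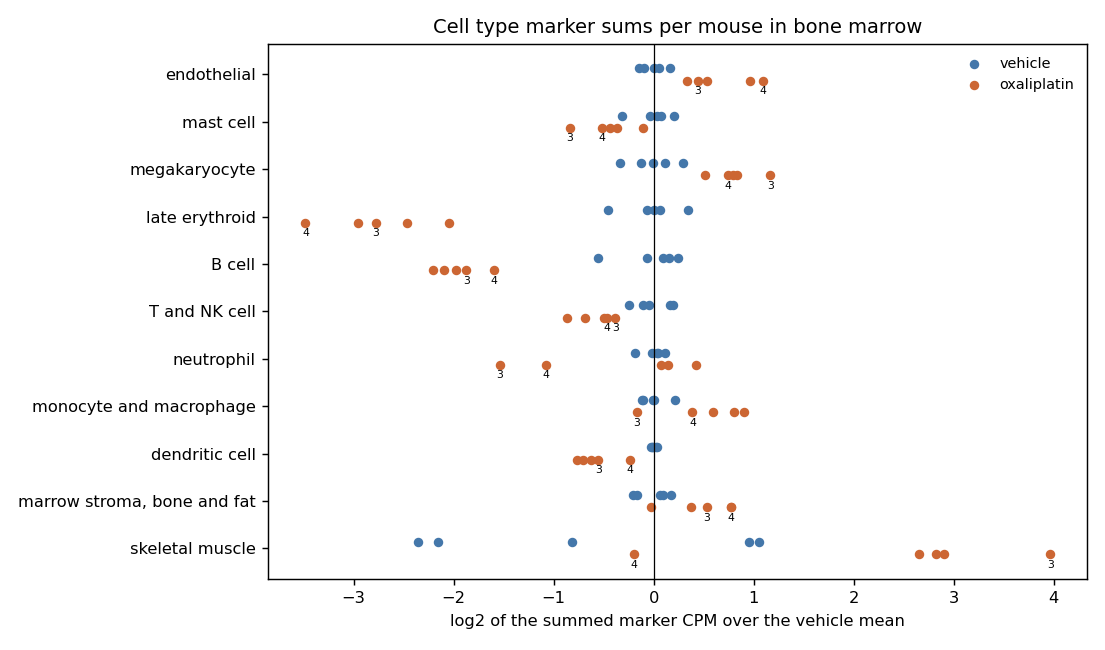
Summed CPM of each marker list in every marrow library as log2 over the vehicle mean, 5 mice per group, with treated mice 3 and 4 numbered. Late erythroid and B cell sums lie far left in all treated mice, megakaryocyte and endothelial sums lie right of all vehicle mice, and neutrophil sums are low in treated mice 3 and 4.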

How the data were processed

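RNA of 20 mouse libraries was analysed from the raw gene counts that the authors deposited, 1 table per tissue, with no normalization. Per the labels, ribosomal RNA was removed and cDNA made with random hexamers, and the submitters' processing notes name STAR 2.7.9a, featureCounts 2.0.3 and Salmon 1.5.2. The methods instead name SMARTer cDNA, STAR, Ensembl release 101 and unique reads counted in Partek Flow. Which made the deposited counts, and whether strand was used, is not given in the sources used here.

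Of 55774 lines, repeats and 1 incomplete line were dropped. Genes were filtered (filterByExpr, minimum count 10), scaled by TMM and tested per tissue with edgeR 4.0.16 (R 4.3.3; robust quasi-likelihood, two-sided, Benjamini-Hochberg over all genes tested, treatment only). The tissue by treatment term used 1 fit of all 20 libraries. CPM are TMM-scaled. SDs and p-values measure the spread between mice, and floors of 3 counts cover counting error only (between 0.0729 and 0.0978 CPM in marrow). No libraries agreed within sampling noise, the lowest chi-square per degree of freedom being 7.51. Positions and exon lengths came from GENCODE mouse release 21 (GRCm38), which covers 55227 of the identifiers, and promoters from RefSeq. In a check on simulated data, the marrow fit of 22363 genes called 63% of genes changed 2-fold and 96% changed by 2 on the log2 scale, and the kidney fit of 19293 genes 85% and 98%.

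All members are named. From each pathway list, the 2 called genes of largest change in each direction in marrow are named, from each marker list the most abundant gene and genes at 3 counts or fewer, and Cdkn1a as a check. 1 gene that this rule names is not reported here. Members and lists were chosen with earlier results of these data known, and no gene set was tested. Alternatives were DESeq2 1.42.0, RLE scaling, library size alone, other filters, other thresholds, a replicate block, a Y-linked covariate and leaving libraries out.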

Additional observations from a re-analysis of the deposited data

Results flagged for a closer look

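The members Mecom, Procr, Kit and Cd34 responded differently in the tissues by the tissue by treatment term, given as marrow minus kidney on the log2 scale, with Mecom at 0.74, Procr at 1.81, Kit at −0.69 and Cd34 at −0.76.

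Single mice stood apart from the other 4 of their group in 5 of 40 sets of values (10 members in 4 groups). For independent normal values chance sets apart about 1 in 20. These sets share mice and some hold few counts, so no excess over that share is read. Cd34 was highest in vehicle mouse 4 in marrow, at 27.2 CPM, and in vehicle mouse 3 in kidney, at 16.3 CPM. Mllt3 was highest in vehicle mouse 5 in kidney, at 15.8 CPM. Flt3 was lowest in vehicle mouse 4 in kidney, at 0.282 CPM from 7 counts, and Slamf1 highest in vehicle mouse 1 in kidney, at 0.299 CPM from 8 counts. Without vehicle mouse 4, the Cd34 difference in marrow was −0.02 on the log2 scale.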

How the results depend on the processing

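Members called in marrow (3) numbered 5 with the Y-linked covariate, which added Meis1 and Flt3, and 6 at an adjusted p under 0.05 alone, 4 with DESeq2, RLE, library size alone or without late erythroid genes (Meis1 added), 2 in the test against a 1.5-fold change (without Mecom), 2 at 10 counts or more in every library (without Procr), and from 3 to 5 when 1 library was left out, with 5 only without treated mouse 5, where Flt3 and Meis1 were added. Meis1 was also called without vehicle mouse 1 or treated mouse 4. Members called in kidney (1) numbered 2 with library size alone (Meis1 added) and 2 with the Y-linked covariate (Flt3 added). They numbered 5 at an adjusted p under 0.05 alone and 0 in the test against a 1.5-fold change. When 1 library was left out they numbered from 1 to 2, with 2 only without treated mouse 4 (Flt3 added). The test against 1.5-fold called 2730 genes in marrow (5221 otherwise) and 454 in kidney (2216), and the adjusted p alone 5679 in kidney.

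With library size alone, the marrow differences of Cd48 (0.0028) and Cd34 (0.046) changed sign. The tissue by treatment term of Meis1 ran from −0.0028 to 0.22 and that of Slamf1 from −0.0035 to 1.15 when 1 library was left out. Library size alone moved the median of all genes from −0.04 to 0.11 in marrow and from 0.02 to 0.16 in kidney, and the share of calls that were higher from 49.6% to 63.4% and from 66.8% to 82.7%.

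The replicate block called 4968 genes in marrow and 2017 in kidney, and 7008 for the tissue by treatment term (7316 otherwise), and changed no member's call, though the adjusted p of Hlf in marrow became 0.0768 and that of Mllt3 in kidney 0.0564 (edgeR). A replicate block across tissues, which took equal numbers of a treatment as 1 mouse and was added after seeing the data, called 6710 and kept the terms of Kit, Cd34, Mecom and Procr under an adjusted p of 0.05 (edgeR, highest 0.0286). Correlations were taken on log2 CPM after the group mean of each gene was subtracted. Same-numbered marrow and kidney libraries of a treatment then correlated from −0.0938 to 0.206, against −0.276 to 0.182 for other numbers. Same-numbered vehicle and treated mice correlated from −0.118 to 0.228 in marrow, against −0.337 to 0.400 for other numbers. In kidney the ranges were −0.154 to 0.0754 and −0.165 to 0.254. In each tissue 1 of 5 vehicle libraries correlated best with its own number. Whether equal numbers mark a shared cage or day is not given in the sources used here. Procr, with 9 counts in vehicle mouse 2, had no value under a filter of 10 counts in every library. Leaving out treated mice 3 and 4 was chosen after seeing the data. Depth limits Procr in marrow and Flt3, Cd48 and Slamf1 in kidney. The causes of these changes were not tested.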
